A study of Danio rerio with 16 samples.

Results

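Voltage-gated sodium (NaV) and calcium (CaV) channel genes were followed through zebrafish development and into 2 adult body parts. They were taken by name alone: an Ensembl gene ID was a member if its deposited gene name began with scn, a number and a letter, or with cacna, cacnb or cacng, in upper or lower case. This gave 68 gene IDs of the 32440 listed in either annotation of the series, 18 of sodium channels and 50 of calcium channels. By name 27 were classed as pores and 41 as auxiliary subunits, and an ID so classed need not cover a whole gene. The pores comprised 10 NaV, 7 CaV1, 6 CaV2 and 4 CaV3 genes, and the auxiliary subunits 8 NaV beta, 10 CaV α2δ, 7 CaV β and 16 CaV γ genes.

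All animals were wild type of the AB strain, and the labels record no treatment. The groups were whole embryos at 24 hours post fertilization (hpf, 3 biological samples), a pool of embryos (titled 16 to 36 hours, but with a stage label of 16 somites to 24 hpf), 5-day whole larvae, 1 adult body part taken as the entire head and another taken as the entire tail. Each group other than 24 hpf was 1 library, and the number and sex of the animals per library are not stated in the sources used here. Messenger RNA was sequenced in bulk, so fewer cells of a type and less RNA per cell cannot be told apart in any value below.

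A NaV channel is 1 large protein that forms the pore, opens at once on depolarization and starts the action potential of nerve and muscle. Its beta subunits are small membrane proteins with an immunoglobulin-like domain that tune gating and hold the channel at adhesion sites. A CaV channel turns the same depolarization into calcium entry, with CaV1 (L-type) pores driving muscle contraction and ribbon synapses, CaV2 pores driving transmitter release at nerve terminals and CaV3 (T-type) pores setting firing near rest. CaV β binds the pore from inside, α2δ sits outside the membrane and raises delivery to the surface, and the γ family splits into partners of the muscle channel and the TARPs, which chiefly traffic and gate AMPA glutamate receptors. After the genome duplication of bony fishes many of these genes exist in zebrafish as an a and a b copy.

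The deposited counts on genes came to 40899061 to 44962951 per 24 hpf sample and 8017208 to 11045403 in the other libraries, where 1 count was 0.0910 to 0.113 CPM (counts scaled to library size with TMM factors). The 17 neuron markers summed to 463 ± 49.5 CPM at 24 hpf (mean ± SD, n = 3), 869 in the pool, 2116 in the larvae, 2581 in the head against 57.6 in the tail. The 15 photoreceptor markers reached 4780 CPM in the larvae and 8447 in the head, against 8.82 ± 1.43 at 24 hpf and 8.55 in the tail. The tail library went against a plain reading of its label, since 14 ovary and oocyte markers summed to 3036 CPM there and to between 3.78 and 17.3 in every other library. The 24 hpf libraries were counted on an annotation of 28491 gene IDs and the others on one of 32313, and only 35 of the 65 members in both kept the same interval, so stage, depth and annotation cannot be fully told apart in the comparisons with 24 hpf.

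Channel genes were far higher in the larvae and the adult head than in 24 hpf embryos, less so in the pool, and split in both directions in the tail. Of the 62 members that could be tested, 52 were higher and 1 was lower in the larvae, 83.9% and 1.61%, where 26.5% of all 21128 genes tested were higher and 23.9% lower. In the head 51 members were higher (82.3%) and 3 lower (4.84%), against 32.2% and 30.4% of all genes. The tail had 17 members higher (27.4%) and 10 lower (16.1%), against 25.6% and 27.5% of all genes, so that its share of higher members was close to that of all genes. Under scaling by library totals, which moves the median of all genes up to between 0.16 and 0.53, the tail had 19 higher and 6 lower and the head 54 and 1. Under that scaling 32.7% of all genes were higher and 21.3% lower in the tail, and 39.6% and 21.4% in the head. The median log2 change of the members was 3.23 in the larvae, 3.40 in the head and 0.20 in the tail (0.41 with the 5 members at 0 counts placed at 3 counts), while that of all genes lay between -0.11 and -0.01.

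These calls come from the quasi-likelihood test of edgeR at an adjusted p (Benjamini-Hochberg) under 0.05 over all genes tested, in a model where the 24 hpf samples alone give the spread and each lone library is assumed to vary like them. The 4 comparisons share those 3 samples. Each of the 52, 51 and 17 higher members lay above all 3 samples, and each of the 1, 3 and 10 lower members lay below them. Among the 33 tested members with an identical interval in both annotations, 28 were higher and 0 lower in the larvae, 27 and 1 in the head, and 8 and 4 in the tail. Of the 6 members not tested, the IDs of 3 were absent from the 24 hpf annotation (the second scn12aa, the later scn4bb and CACNA1E (2 of 2)). The other 3 did not pass the count filter (CACNA2D2 (3 of 3), CACNG1 (1 of 2) and CACNG4 (2 of 2)). That filter works on counts scaled to depth, where 1 library can be enough, and also asks for a minimum total over all libraries. CACNA2D2 (3 of 3), with 30, 22 and 21 embryo counts, did not pass. A member near 0 at 24 hpf could be tested through a library where it was high. CACNG5 (2 of 2), with 0, 0 and 2 embryo counts, is such a member among the higher ones. It is not alone, as cacng7a (3, 1 and 1 counts), cacna1f (8, 8 and 25) and cacng8a (9, 21 and 17) show. Only 30 of the 62 tested members had a mean of at least 1 CPM at 24 hpf. Those below it had little room to be called lower, so higher and lower calls were not equally open to the members. Over the 30 tested members with at least 1 CPM at 24 hpf, the coefficient of variation between the 3 samples had a median of 24.0% and ran from 5.24% to 75.7%.

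**Figure D1:**
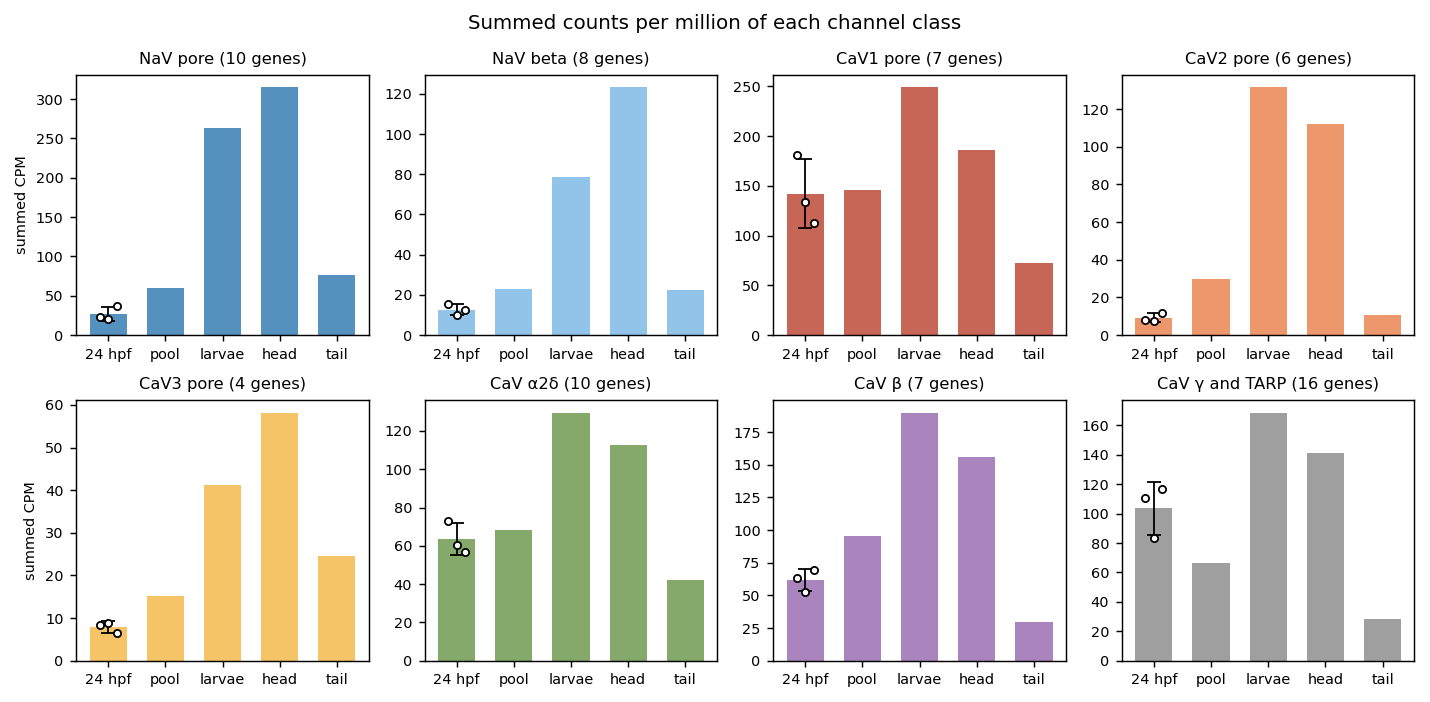
Summed CPM of each channel class (y axis, linear from 0) in the 5 groups. Bars give the 24 hpf mean with its SD and open points the 3 samples, while the other bars are single libraries; NaV pores rise from 26.5 at 24 hpf to 263 in the larvae and 316 in the head, and 5 of the 8 classes are highest in the larvae.

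**Figure D2:**
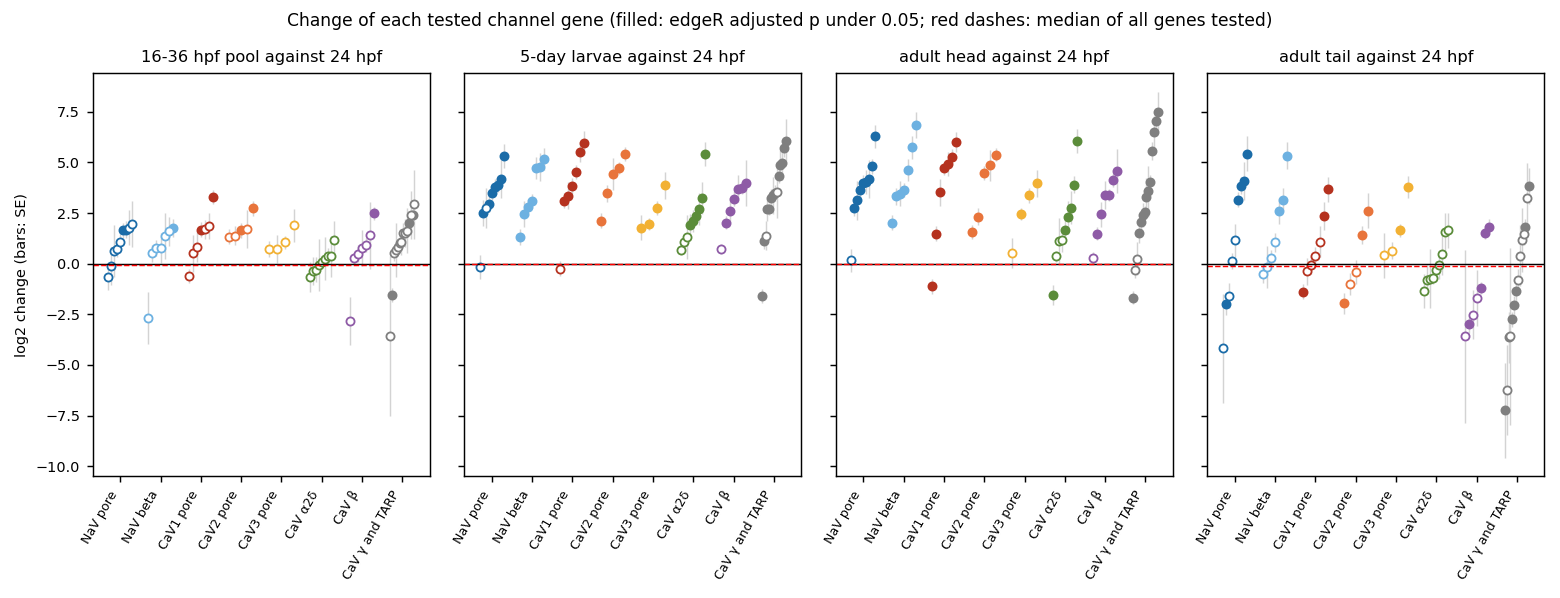
Log2 change against 24 hpf (y axis) of each of the 62 tested members by class in the 4 comparisons, with bars of 1 SE. Filled points passed the edgeR test, and the red dashed line is the median of all genes tested; filled points crowd above the line in the larvae and head panels and lie on both sides of it in the tail panel.

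The NaV pore genes together held 26.5 ± 8.73 CPM at 24 hpf, 59.3 in the pool, 263 in the larvae, 316 in the head and 76.9 in the tail. Of the 9 tested, 7 were higher in the larvae, 8 in the head and 4 in the tail, and 1 was lower in the tail. Of all genes 26.5%, 32.2% and 25.6% were higher in these libraries, and 27.5% were lower in the tail. The lead gene of embryo and larva was scn8aa (chromosome 23, 27492262 to 27586062, Zv9), counterpart of the mammalian NaV1.6 channel of axon initial segments and nodes of Ranvier. It stood at 10.2, 10.7 and 20.8 CPM in the 3 samples at 24 hpf, 28.8 in the pool, 109 in the larvae, 93.5 in the head and 3.49 in the tail. Larvae and head lay above all 3 embryo samples and the tail below them. The log2 change was 2.97 ± 0.40 (SE; adjusted p = 0.00144) in the larvae, 2.75 ± 0.41 (adjusted p = 0.00119) in the head and -1.99 ± 0.56 (adjusted p = 0.0211) in the tail.

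Its paralogue scn8ab (chromosome 6, 39323305 to 39406168) had 3.12 to 5.11 CPM at 24 hpf, 12.1 in the pool, 44.0 in the larvae, 48.6 in the head and 4.27 in the tail. It was higher in the pool, larvae and head, the pool call being lost without the first or the second embryo sample (adjusted p = 0.109 in both), and its tail value lay inside the range of the embryos. The gene scn1lab (chromosome 6, 10158985 to 10216572), whose loss gives a zebrafish model of Dravet epilepsy, showed 2.32, 2.37 and 4.38 CPM at 24 hpf, 9.64 in the pool, 41.6 in the larvae, 47.6 in the head and 1.01 in the tail. Its log2 change was 3.78 ± 0.39 (adjusted p = 0.000505) in the larvae and 3.97 ± 0.39 (adjusted p = 0.000231) in the head. The head therefore held 47.0 times the tail's level, with a 95% counting interval of 24.6 to 103.

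The muscle channel followed another course. scn4ab (chromosome 3, 22486137 to 22529879), counterpart of the skeletal muscle channel NaV1.4, had 4.53, 2.35 and 4.18 CPM at 24 hpf, 6.10 in the pool, 55.1 in the larvae, 104 in the head and 33.3 in the tail. Larvae, head and tail all lay above the 3 embryo samples, with log2 changes of 3.90 ± 0.36, 4.81 ± 0.36 and 3.17 ± 0.36 (adjusted p = 0.000344, 9.32e-05 and 0.000527). Its paralogue scn4aa had 0.476, 0.0552 and 0.0847 CPM at 24 hpf and 0.819 in the pool, then 3.85, 3.77 and 3.60 CPM in larvae, head and tail, and it was higher than at 24 hpf in these 3. The 15 fast skeletal muscle markers summed to 15340 ± 5360 CPM at 24 hpf, 51090 in the larvae, 18140 in the head and 17230 in the tail, so that the marker sum was highest in the larvae and scn4ab in the head, and the part of muscle content in the change was not tested.

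scn1a had its highest level in the tail. scn1a (chromosome 9, 50902562 to 50972365) had 0.0560, 0.248 and 0.762 CPM at 24 hpf, 0.546 in the pool, 2.43 in the larvae, 3.15 in the head against 15.6 in the tail. The tail value lay above every other library, with a log2 change against 24 hpf of 5.44 ± 0.87 (adjusted p = 0.00215). The later annotation lists 3 loci under this ID, and the interval at 24 hpf differs, starting at 50902543. The part of the annotation in this change was not tested. The head held 0.201 (95% counting interval 0.131 to 0.3003) of the tail's scn1a. The 7 heart muscle markers summed to 17.8 CPM in the tail against 133.7 ± 23.6 at 24 hpf, while the ovary and oocyte markers were at 3036 CPM in that library, and their part in this value was not tested. scn1a also passed the test in the head (log2 change 3.13 ± 0.95, adjusted p = 0.0243), a call that was lost without the second 24 hpf sample (2.93).

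The name scn12aa moved between 2 IDs on chromosome 2. The 24 hpf annotation gives it to the first, which has another name in the later annotation, and the later annotation gives it to the second. The first (ENSDARG00000059692, 51470414 to 51506531) had 0.0839, 0.138 and 0.0847 CPM at 24 hpf, 0.364 in the pool, 4.25 in the larvae, 8.49 in the head and 0 in the tail, where 0 counts allow up to 0.337 CPM. The second (ENSDARG00000093690, 52789627 to 52789894) had 0 counts in the pool, 1 in the larvae and 5 in the head. The first scn12aa was higher in larvae and head, with log2 changes of 5.30 ± 0.59 and 6.29 ± 0.57. The division of reads between these IDs is not known, and their sequences were not compared, so their separate levels are uncertain.

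The NaV beta genes summed to 12.7 ± 2.91 CPM at 24 hpf, 22.8 in the pool, 78.8 in the larvae, 123 in the head and 22.5 in the tail. All 7 tested were higher in both larvae and head, and 3 were also higher in the tail. Of all genes 26.5%, 32.2% and 25.6% were higher in these libraries. Levels per length are the deposited fragment values scaled to gene length and depth (FPKM). By these, scn1ba (chromosome 16, 44643167 to 44667205) made up 62.8% ± 8.76 of the class at 24 hpf, 53.6% to 71.1% per sample. Its share was 47.9% for the pool and 19.5% for the larvae. The later shares also count the ID named scn4bb in the later annotation, which had FPKM values but 0 counts. That ID is absent from the 24 hpf annotation, where the name belongs to SCN4B (2 of 2). scn4bb held 11.3% of the class for the pool, 6.91% for the larvae and 5.67% for the head. Its part in the smaller later shares of scn1ba was not tested. scn1ba had 11.3, 5.74 and 7.91 CPM at 24 hpf, 14.3 in the pool, 20.96 in the larvae, 33.97 in the head and 5.85 in the tail. Its log2 change was 1.33 ± 0.39 in the larvae (adjusted p = 0.0271), which was lost without the second 24 hpf sample (1.13), and 2.03 ± 0.38 in the head (adjusted p = 0.00330). Its tail value lay inside the range of the embryos.

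Per length, scn3b made up 27.8% of the class in the larvae and 26.1% in the head, and scn2b 21.2% and 19.5%, beside 22.01% for scn1ba in the head. Both scn3b and scn2b are partners of brain NaV channels in mammals. scn3b (chromosome 15, 21095480 to 21109502) had 1.46, 1.99 and 1.89 CPM at 24 hpf, 2.55 in the pool, 15.2 in the larvae, 22.4 in the head and 2.14 in the tail, and with 14.4 FPKM in the larvae and 19.6 FPKM in the head it had the highest level per length of the class in both. scn2b (chromosome 15, 12916550 to 12940855) had 0.308, 0.304 and 0.904 CPM at 24 hpf, 1.55 in the pool, 18.3 in the larvae, 27.3 in the head and 0.450 in the tail. Larvae and head lay far above the 3 embryo samples for both, with log2 changes of 3.09 ± 0.35 and 3.65 ± 0.34 for scn3b and 5.17 ± 0.56 and 5.74 ± 0.56 for scn2b (adjusted p from 0.000203 to 0.000695). The head held 60.6 times the tail's scn2b, with a counting interval of 23.4 to 224.

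Among the beta genes higher in the tail as well were scn4ba and SCN4B (2 of 2). scn4ba had 0.221 to 0.616 CPM at 24 hpf, 0.728 in the pool, 11.2 in the larvae, 10.5 in the head and 3.82 in the tail, which were log2 changes of 4.72 ± 0.53, 4.62 ± 0.53 and 3.17 ± 0.58 in the last 3. SCN4B (2 of 2) had 0.311 to 0.923 CPM at 24 hpf, 0.0910 in the pool, 3.44 in the larvae, 6.92 in the head and 3.82 in the tail. In the later annotation alone the ID scn4bb lies inside the interval of SCN4B (2 of 2). The part of this overlap in the values after 24 hpf and in the pool was not tested. SCN4B (2 of 2) was called higher in larvae, head and tail. Its larval change (2.45 ± 0.64, adjusted p = 0.0177) was lost without the second 24 hpf sample (2.47). scn1bb, which lies within the locus of gpd1, had 0.932 to 1.01 CPM at 24 hpf and 3.28, 6.68, 9.75 and 2.02 CPM in pool, larvae, head and tail, and it was higher in the first 3 of these. Its pool call (1.75 ± 0.44, adjusted p = 0.0459) was lost without the first (1.78) or the second (1.75) embryo sample. It was also lost with DESeq2 (1.77) and among the genes with the same interval alone (1.59).

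Among CaV1 pores the embryo was dominated by 1 gene. cacna1sb (chromosome 8, 26620552 to 26661346) encodes the voltage sensor of fast muscle fibres, while its paralogue cacna1sa (chromosome 22, 892639 to 948674) encodes that of slow fibres in zebrafish. cacna1sb made up 93.2% ± 2.87 of the class's FPKM at 24 hpf, 64.0% in the pool, 41.7% in the larvae, 28.6% in the head and 66.5% in the tail. It had 172, 127 and 101 CPM at 24 hpf, 88.3 in the pool, 113 in the larvae, 61.4 in the head and 51.05 in the tail. Its larval value lay inside the range of the embryos, and head and tail lay below it, with log2 changes of -1.12 ± 0.37 (adjusted p = 0.0322) and -1.38 ± 0.37 (adjusted p = 0.0182). Both calls were lost without the second 24 hpf sample (-1.15 and -1.42) and under scaling by library totals (-0.58 and -0.97), and the head's also without the first (-0.89).

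cacna1sa had 6.01, 3.20 and 5.14 CPM at 24 hpf, 46.4 in the pool, 41.5 in the larvae, 13.4 in the head and 4.61 in the tail. It showed the largest called change of any member in the pool, where its log2 change of 3.28 ± 0.35 (adjusted p = 0.00558) was the one member call that remained when any 1 of the embryo samples was left out. The log2 change was 3.12 ± 0.36 (adjusted p = 0.000735) in the larvae and 1.49 ± 0.38 (adjusted p = 0.0123) in the head. Its tail value lay inside the range of the embryos. The ratio of cacna1sb to cacna1sa FPKM was 20.3 to 41.4 in the embryo samples, 2.34 in the pool, 3.06 in the larvae, 4.82 in the head against 13.3 in the tail.

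The CaV1 pores outside skeletal muscle were low at 24 hpf. cacna1c (chromosome 4, 19253816 to 19410662), the L-type pore of heart and brain whose loss stops the zebrafish ventricle, had 1.03, 0.883 and 1.21 CPM at 24 hpf, 3.37 in the pool, 24.1 in the larvae, 27.5 in the head and 1.35 in the tail. Its log2 change was 4.52 ± 0.33 (adjusted p = 0.000152) in the larvae and 4.71 ± 0.33 (adjusted p = 7.77e-05) in the head. CACNA1D had 0.497 to 0.671 CPM at 24 hpf, 1.91 in the pool, 8.40 in the larvae, 23.0 in the head and 0.450 in the tail. cacna1da, the pore of hair cell ribbon synapses, had 0.783, 1.38 and 3.50 CPM at 24 hpf, 3.37 in the pool, 19.3 in the larvae, 21.7 in the head and 9.67 in the tail. CACNA1D was higher in larvae and head, and cacna1da in larvae, head and tail, although its tail call (2.35 ± 0.69, adjusted p = 0.0250) was lost without the second 24 hpf sample (2.17). The 5 hair cell markers summed to 373 ± 46.8 CPM at 24 hpf, of which pvalb9 made up 341 ± 43.3. The sum was 124 in the pool, 63.5 in the larvae, 30.7 in the head and 12.8 in the tail. By gene, 1 was higher and 2 lower in the pool, 2 and 2 in the larvae, 1 and 2 in the head, and 0 and 3 in the tail. Of all genes 6.56%, 26.5%, 32.2% and 25.6% were higher in these libraries, and 6.05%, 23.9%, 30.4% and 27.5% lower. With 5 markers, these counts are not read as a trait of hair cells. The part of hair cell content in the values of cacna1da was not tested.

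Both copies of CACNA1F, the L-type pore of photoreceptor ribbon synapses, were low in the embryo. cacna1f (chromosome 8, 23712660 to 23779257) had 0.224, 0.221 and 0.706 CPM at 24 hpf, 0.546 in the pool, 24.2 in the larvae, 11.7 in the head and 4.95 in the tail. CACNA1F (2 of 2) (chromosome 8, 46671340 to 46737036), called cacna1fa in the gene name table, had 0.308, 0.690 and 0.254 CPM at 24 hpf, 1.55 in the pool, 19.3 in the larvae, 27.3 in the head against 0.8996 in the tail. The first had its highest level in the larvae and the second in the head, and the log2 changes were 5.96 ± 0.59 and 4.92 ± 0.59 for cacna1f and 5.51 ± 0.50 and 6.01 ± 0.50 for CACNA1F (2 of 2) in larvae and head (adjusted p from 0.000132 to 0.000523). cacna1f also passed the test in the tail (3.67 ± 0.63, adjusted p = 0.00292), a library in which the photoreceptor markers summed to 8.55 CPM and 4 of the 15 had 0 counts. In larvae and head those markers stood at 4780 and 8447 CPM, and their part in the values of both copies was not tested.

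CaV2 pores, which serve transmitter release, moved from 9.11 ± 2.39 CPM in sum at 24 hpf to 29.9 in the pool, 132 in the larvae, 112 in the head and 10.8 in the tail. All 5 tested were higher in larvae and head, where 26.5% and 32.2% of all genes were higher. cacna1aa (chromosome 3, 33876943 to 33986779), a P/Q-type pore, had 1.26, 0.911 and 1.64 CPM at 24 hpf, 8.55 in the pool, 54.8 in the larvae, 28.7 in the head and 3.37 in the tail. Per length it held 43.9% of the class's FPKM in the larvae, and its log2 change there was 5.43 ± 0.35 (adjusted p = 0.000101), beside 4.49 ± 0.35 (adjusted p = 0.000103) in the head, 2.75 ± 0.37 (adjusted p = 0.00896) in the pool and 1.41 ± 0.43 (adjusted p = 0.0283) in the tail. The pool call was lost without the second 24 hpf sample (2.56), and the tail call without the first (adjusted p = 0.0693) or the second (1.22). Its paralogue cacna1ab (chromosome 11, 31693396 to 31900366) had 0.252, 0.304 and 1.41 CPM at 24 hpf, 2.18 in the pool, 14.2 in the larvae, 19.0 in the head and 4.05 in the tail, and the ratio of cacna1aa to cacna1ab FPKM went from 1.71 to 6.47 in the embryos and 2.65 in the larvae to 0.663 in the head.

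The N-type pore cacna1ba (chromosome 5, 30934885 to 31126735) was the leading CaV2 gene of the embryo, with 53.4% ± 5.85 of the class's FPKM at 24 hpf, 33.1% in the pool, 13.6% in the larvae and 9.23% in the head. It had 4.45, 3.92 and 5.99 CPM at 24 hpf, 12.1 in the pool, 20.96 in the larvae, 14.2 in the head and 1.24 in the tail. Larvae and head were above the embryos and the tail below, with log2 changes of 2.13 ± 0.35 (adjusted p = 0.00280), 1.56 ± 0.36 (adjusted p = 0.00768) and -1.95 ± 0.51 (adjusted p = 0.0158). Its paralogue cacna1bb had 1.09 to 1.92 CPM at 24 hpf, 3.91 in the pool, 16.7 in the larvae, 7.55 in the head against 1.12 in the tail. The R-type pore named cacna1r (chromosome 8, 15169361 to 15348604), CACNA1E in the gene name table, had 0.867, 0.939 and 0.904 CPM at 24 hpf, 2.82 in the pool, 24.3 in the larvae, 38.2 in the head and 0.450 in the tail. Its head change of 5.39 ± 0.30 had the smallest adjusted p of all members, 3.89e-05, and the head held 84.8 times the tail's level with an interval of 32.9 to 313. Its annotated relative CACNA1E (2 of 2), which is absent from the 24 hpf annotation, had 0.364, 0.911, 4.72 and 0.562 CPM in pool, larvae, head and tail.

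The CaV3 pores summed to 7.92 ± 1.33 CPM at 24 hpf, 15.2 in the pool, 41.1 in the larvae, 58.2 in the head and 24.5 in the tail. All 4 were higher in the larvae, 3 in the head and 2 in the tail, against 26.5%, 32.2% and 25.6% of all genes. CACNA1H (1 of 2) (chromosome 3, 39848558 to 39945676) and cacna1g (chromosome 12, 29276262 to 29637717) made up 55.0% ± 3.01 and 34.03% ± 2.81 of the class's FPKM at 24 hpf. CACNA1H (1 of 2) had 4.45, 4.80 and 3.67 CPM at 24 hpf, 8.92 in the pool, 16.6 in the larvae, 23.7 in the head and 13.5 in the tail. cacna1g had 3.41, 3.40 and 2.203 CPM at 24 hpf, 4.91 in the pool, 20.4 in the larvae, 31.1 in the head and 4.72 in the tail. Both were higher in larvae and head, and the first also in the tail (1.65 ± 0.32, adjusted p = 0.00473). CACNA1H (2 of 2) had at most 0.221 CPM in the embryos and reached 2.53 and 2.73 CPM in larvae and head.

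cacna1i (chromosome 3, 29233385 to 29470639), the third T-type pore type, had its highest level in the tail. It had 0.420, 0.497 and 0.395 CPM at 24 hpf, 0.728 in the pool, 1.52 in the larvae, 0.629 in the head against 6.07 in the tail. The tail's log2 change was 3.78 ± 0.54 (adjusted p = 0.00128), and the head held 0.104 of the tail's level (interval 0.0364 to 0.241). Its larval call (1.78 ± 0.62, adjusted p = 0.0469) was lost without the first, the second or the third 24 hpf sample (1.75, 1.88 and 1.54) and with DESeq2 (1.84), no filter on low counts (1.78) or the genes with the same interval alone (1.57). As for scn1a, the ovary and oocyte markers of the tail library stand beside this value, and their part in it was not tested.

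**Figure D3:**
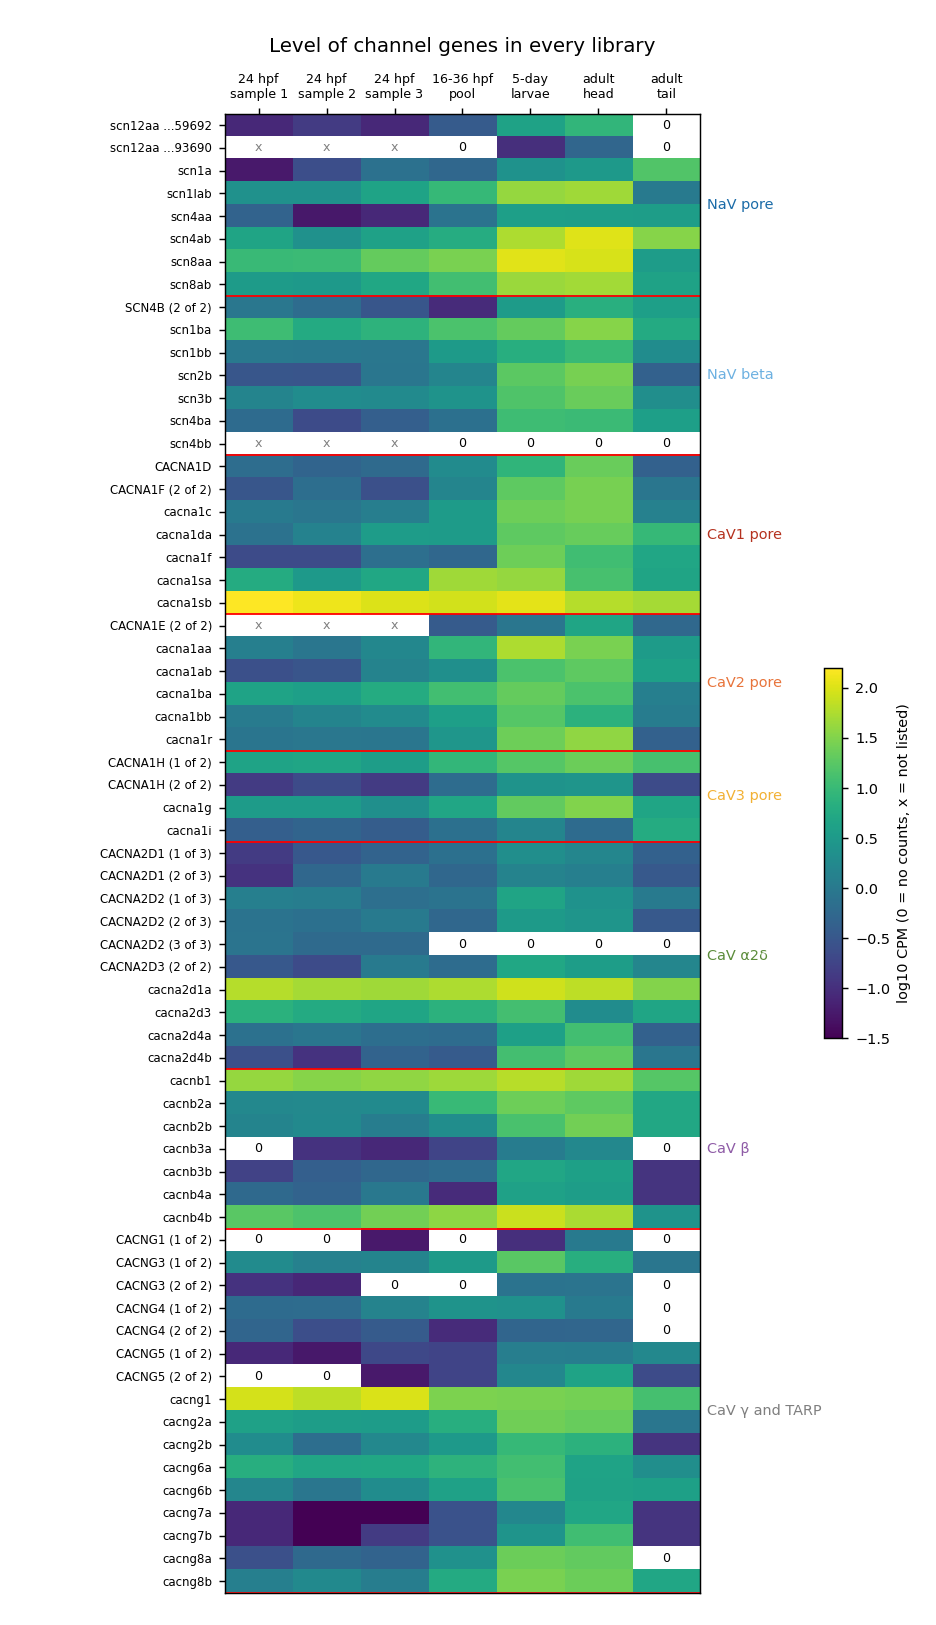
Level of 65 of the 68 channel genes in each of the 7 libraries as log10 CPM (colour, bright is high), grouped by class. A 0 marks a gene with no counts and an x a gene not listed in the 24 hpf annotation; larvae and head are the brightest columns in most rows, cacng1 is brightest in the 24 hpf samples, and scn1a and cacna1i are brightest in the tail.

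The α2δ genes had calls in larvae and head alone. They summed to 63.6 ± 8.38 CPM at 24 hpf, 68.1 in the pool, 130 in the larvae, 113 in the head and 41.9 in the tail. Of 9 tested 0 passed in the pool and 0 in the tail, with 6 higher in the larvae and 5 higher and 1 lower in the head. Of all genes 26.5% were higher in the larvae, and 32.2% were higher and 30.4% lower in the head. In the tail 25.6% of all genes were higher and 27.5% lower, and in the pool 6.56% and 6.05%. cacna2d1a (chromosome 4, 18699243 to 18818403), the α2δ of the muscle channel in mammals, made up 74.2% ± 3.92 of the class's FPKM at 24 hpf and 48.6% to 75.1% in the other libraries. It had 61.3, 50.1 and 46.3 CPM at 24 hpf, 56.2 in the pool, 84.5 in the larvae, 67.9 in the head and 32.2 in the tail. It passed the test in no comparison, with log2 changes from -0.71 ± 0.30 (adjusted p = 0.0811) in the tail to 0.68 ± 0.27 (adjusted p = 0.0713) in the larvae. CACNA2D1 (2 of 3) was the other of the 2 tested members with no call in any comparison.

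The α2δ4 copies, whose mammalian gene serves photoreceptor synapses, rose in larvae and head. cacna2d4b (chromosome 25, 19513808 to 19580551) had 0.252, 0.110 and 0.480 CPM at 24 hpf, 0.364 in the pool, 12.3 in the larvae, 19.4 in the head and 0.8996 in the tail. cacna2d4a (chromosome 4, 19174091 to 19230701) had 0.755, 0.911 and 0.678 CPM at 24 hpf, 0.637 in the pool, 4.05 in the larvae, 11.8 in the head and 0.450 in the tail. Their log2 changes were 5.43 ± 0.59 and 6.08 ± 0.59 for the b copy and 2.36 ± 0.47 and 3.91 ± 0.44 for the a copy in larvae and head (adjusted p from 0.000229 to 0.00615). The a copy overlaps lrtm2 and the b copy LRTM2. The strand option of the counts is not stated, and the part of this overlap in their values was not tested. The photoreceptor markers that rose in the same libraries were given above.

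cacna2d3 (chromosome 11, 37530199 to 37606186) fell in the head. It had 7.22, 5.82 and 4.66 CPM at 24 hpf, 7.55 in the pool, 12.2 in the larvae, 1.99 in the head against 4.72 in the tail. The head change was -1.56 ± 0.49 (adjusted p = 0.0264), and the call was lost without the first (-1.39) or the second (-1.57) 24 hpf sample, with DESeq2 (-1.47) and under library totals (-1.03). The larvae held 6.15 times the head's level (counting interval 3.77 to 10.6). Its paralogue CACNA2D3 (2 of 2), which overlaps wnt5a and LRTM1, had 0.221 to 1.04 CPM at 24 hpf and 5.06 and 3.67 CPM in larvae and head. CACNA2D2 (3 of 3) had 30, 22 and 21 counts in the embryos and 0 counts and an FPKM of 0 in each of the other libraries, but its interval ends at 9451809 in one annotation and 9452303 in the other, and the part of the annotation in this was not tested.

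The CaV β genes summed to 61.6 ± 8.38 CPM at 24 hpf, 95.5 in the pool, 190 in the larvae, 156 in the head and 29.7 in the tail. Of 7 tested, 6 were higher in larvae and in head, where 26.5% and 32.2% of all genes were higher. The tail had 2 higher and 2 lower, 28.6% each way and near the 25.6% and 27.5% of all genes. cacnb1 (chromosome 3, 15773659 to 15847664), the β subunit of skeletal muscle whose loss paralyses the zebrafish mutant relaxed, had 41.4, 33.4 and 39.1 CPM at 24 hpf, 45.6 in the pool, 62.9 in the larvae, 46.9 in the head against 16.6 in the tail. The tail lay below all 3 embryo samples (log2 change -1.19 ± 0.30, adjusted p = 0.0140, lost under library totals at -0.76). Its larval change of 0.73 ± 0.26 missed the threshold at an adjusted p of 0.0537.

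cacnb4b (chromosome 6, 13997288 to 14057580), a copy of the main neuronal β, had 17.8, 14.7 and 25.4 CPM at 24 hpf, 36.9 in the pool, 79.1 in the larvae, 54.3 in the head and 2.47 in the tail. It rose in larvae and head and fell in the tail, with log2 changes of 2.03 ± 0.33 (adjusted p = 0.00270), 1.49 ± 0.34 (adjusted p = 0.00714) and -2.96 ± 0.48 (adjusted p = 0.00228). At 23.5 FPKM it was the highest of all 68 members in the larvae. Its paralogue cacnb4a had 0.469 to 0.960 CPM at 24 hpf, 0.0910 in the pool, 4.15 in the larvae, 3.67 in the head and 0.113 in the tail. Both larval and head calls of cacnb4a were lost with DESeq2 (2.67 and 2.54).

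The β2 genes, known for the heart and retina, passed in larvae, head and tail. cacnb2a (chromosome 7, 74455735 to 74500031) had 1.68, 1.77 and 1.86 CPM at 24 hpf, 9.92 in the pool, 23.9 in the larvae, 18.9 in the head and 5.17 in the tail. cacnb2b (chromosome 2, 31191493 to 31229079) had 1.46, 1.79 and 1.19 CPM at 24 hpf, 2.09 in the pool, 13.8 in the larvae, 26.2 in the head against 5.17 in the tail. The log2 changes were 3.75 ± 0.30, 3.41 ± 0.30 and 1.54 ± 0.34 for cacnb2a and 3.21 ± 0.36, 4.14 ± 0.35 and 1.80 ± 0.39 for cacnb2b (adjusted p from 0.000140 to 0.00817). cacnb2a was also higher in the pool (2.48 ± 0.31, adjusted p = 0.00815), a call that was lost without the second 24 hpf sample (2.48). Both β3 copies were higher in larvae and head but at low levels, at most 0.537 CPM at 24 hpf and 4.96 CPM in any other library, and the calls of cacnb3a were lost with DESeq2 (4.14 and 4.78).

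The γ class held the member with the highest level per length (FPKM) in the embryo and, among the called members, the largest changes in either direction. cacng1 (chromosome 6, 23156000 to 23176975), the γ subunit of the skeletal muscle calcium channel, made up 81.6% ± 1.87 of the class's FPKM at 24 hpf, and its 28.0 to 36.0 FPKM were 38.2% to 44.8% of the FPKM of all members in each embryo sample. It had 91.4, 68.4 and 99.3 CPM at 24 hpf, 29.8 in the pool, 28.8 in the larvae, 27.1 in the head and 13.04 in the tail. Every other library lay below all 3 embryo samples, and it was lower in all 4 comparisons, with log2 changes of -1.53 ± 0.34 (adjusted p = 0.0335), -1.59 ± 0.34 (adjusted p = 0.00797), -1.67 ± 0.34 (adjusted p = 0.00467) and -2.73 ± 0.37 (adjusted p = 0.00107). The pool call was lost without the first (-1.49) or the second (-1.68) embryo sample. Of the 15 fast skeletal muscle markers, 3 were higher and 0 lower in the pool, 12 and 0 in the larvae, 4 and 5 in the head, 4 and 4 in the tail. Of all genes 6.56%, 26.5%, 32.2% and 25.6% were higher in these libraries, and 6.05%, 23.9%, 30.4% and 27.5% lower. The part of muscle content in the values of cacng1 was not tested. cacng1 was the single member lower in the pool and the single member lower in the larvae.

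The γ6 copies, also of the muscle branch, differed from cacng1. cacng6a (chromosome 19, 10413338 to 10420784) had 6.58, 4.83 and 5.03 CPM at 24 hpf, 7.83 in the pool, 11.9 in the larvae, 4.40 in the head and 2.14 in the tail. cacng6b (chromosome 16, 14587563 to 14617972) had 1.57, 0.883 and 1.98 CPM at 24 hpf, 4.18 in the pool, 13.8 in the larvae, 4.30 in the head and 4.05 in the tail. Both peaked in the larvae, with log2 changes of 1.12 ± 0.37 (adjusted p = 0.0390) for cacng6a and 3.22 ± 0.48 (adjusted p = 0.00201) for cacng6b. The larval call of cacng6a was lost without the first (1.28), the second (1.04) or the third (0.89) 24 hpf sample and with DESeq2 (1.17). cacng6a was lower in the tail (-1.36 ± 0.46, adjusted p = 0.0430) and cacng6b higher in the head (1.54 ± 0.53, adjusted p = 0.0381), and both calls were lost without the first (-1.20 and 1.59) or the second (-1.44 and 1.28) embryo sample and with DESeq2 (-1.25 and 1.64), the former also under library totals (-0.93) and RLE factors (-1.25).

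Both stargazin copies were higher in larvae and head and lower in the tail. cacng2a (chromosome 3, 29865893 to 29996294) had 4.08, 3.62 and 3.50 CPM at 24 hpf, 6.55 in the pool, 24.6 in the larvae, 21.8 in the head and 0.8996 in the tail. cacng2b (chromosome 6, 301170 to 311208) had 2.01, 0.690 and 1.67 CPM at 24 hpf, 3.09 in the pool, 9.52 in the larvae, 7.65 in the head and 0.113 in the tail, which is 1 count. The log2 changes were 2.39 to 2.72 in larvae and head, and in the tail -2.05 ± 0.47 (adjusted p = 0.00951) and -3.63 ± 1.25 (adjusted p = 0.0441). The tail call of cacng2b was lost without the first embryo sample (-3.31), with DESeq2 (-3.59) and under library totals (-3.20).

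cacng8a (chromosome 19, 10435822 to 10452501) had 0.252, 0.580 and 0.480 CPM at 24 hpf, 2.37 in the pool, 23.2 in the larvae, 20.8 in the head and 0 in the tail. Its head level was at least 61.5-fold higher than the 3 counts that a count of 0 in the tail allows. cacng8b (chromosome 16, 14633801 to 14705160) had 1.23, 1.79 and 1.16 CPM at 24 hpf, 5.73 in the pool, 28.1 in the larvae, 23.2 in the head against 4.95 in the tail. The log2 changes were 5.71 ± 0.44 and 5.55 ± 0.44 for cacng8a and 4.33 ± 0.35 and 4.05 ± 0.35 for cacng8b in larvae and head (adjusted p from 0.000113 to 0.000216). cacng8b was also higher in the tail (1.82 ± 0.40, adjusted p = 0.00772), where cacng8a was not detected.

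The largest head changes of the class were those of 3 type II TARP genes. cacng7a and cacng7b had 5 and 9 counts over the 3 embryo samples, 1.62 and 2.63 CPM in the larvae, 4.82 and 11.7 in the head and 1 count each in the tail. Their head changes were 6.52 ± 0.77 (adjusted p = 0.000477) and 7.03 ± 0.66 (adjusted p = 0.000206). CACNG5 (2 of 2) had 0, 0 and 2 counts in the embryos, 16 in the larvae and 42 in the head, and its fitted log2 change of 7.48 ± 1.02 in the head stands on those few embryo counts, with a counting interval of the ratio from 61.5 to 2016. The other CACNG5 copy, CACNG5 (1 of 2), had 3, 2 and 7 counts in the embryos, 12 in the larvae, 11 in the head and 15 in the tail. It was higher in all 3, with 3.84 ± 0.87 in the tail (adjusted p = 0.00914), and each call was lost with DESeq2 (3.49, 3.46 and 4.02), that of the larvae also without the first (3.20) or the second (3.05) embryo sample. CACNG4 (1 of 2) had 0.616, 0.635 and 1.41 CPM at 24 hpf, 2.55 in the pool, 2.33 in the larvae, 1.05 in the head and 0 in the tail, which was at least 2.62-fold lower than 24 hpf (adjusted p = 0.0357). That call was lost without the second embryo sample (adjusted p = 0.0579) and with DESeq2 (adjusted p = 0.0619).

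In the pool, a larger share of channel genes than of all genes was higher than at 24 hpf, but few calls were firm. Of the 62 tested members 10 were higher (16.1%) and 1 was lower (1.61%), against 6.56% and 6.05% of all genes, and 19 and 2 had an unadjusted p under 0.05. The 10 were cacna1sa, cacna1aa, cacnb2a, cacng8a, cacng8b, scn1bb, cacna1c, scn1lab, cacna1r and scn8ab, in order of a log2 change from 3.28 to 1.64, and all 10 were also higher in larvae and head. The count depended on the embryo samples, being 3 without the first, 1 (cacna1sa) without the second and 20 without the third. Of all genes 1.27%, 0.340% and 10.6% were higher in these fits. In the pool 8 of 17 neuron markers were higher than at 24 hpf and 0 lower, and their part in the channel calls was not tested. The age range of the pool overlaps 24 hpf, so the pool and the embryos differ in their mix of stages and not in a single step of time.

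Between single libraries no test was made, and a member was counted only where it was at least 4-fold apart with 20 or more counts over both. From the pool to the larvae 33 of the 56 members with enough counts were at least 4-fold higher and 0 lower, 58.9%, where 13.4% of all genes were higher and 3.51% lower. Sodium channel genes made up 11 of 15 and calcium channel genes 22 of 41. From the larvae to the head 3 of 62 were at least 4-fold higher, among them CACNA1E (2 of 2) at 5.18-fold (interval 2.50 to 12.1) and cacng7b at 4.46-fold (2.89 to 7.12), and cacna2d3 was lower. The shares of 4.84% and 1.61% stood beside 6.99% and 5.26% of all genes.

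The head and the tail parted for most members. Of 58 members with enough counts 35 were at least 4-fold higher in the head (60.3%) and 3 lower (5.17%), where 22.2% of all genes were higher and 14.7% lower. All 6 CaV2 pores were among the higher, with 8 of 12 γ genes and 4 of 7 NaV beta genes. Those lower in the head included scn1a and cacna1i. The members within 4-fold included those of skeletal muscle, with head to tail ratios of 3.11 (interval 2.73 to 3.56) for scn4ab, 1.20 (1.06 to 1.36) for cacna1sb, 2.91 (2.03 to 4.25) for cacna1sa, 2.82 (2.33 to 3.41) for cacnb1 and 2.07 (1.66 to 2.60) for cacng1. Neuron markers stood at 2581 CPM in the head and 57.6 in the tail, with 16 of 17 at least 4-fold higher in the head, and fast muscle markers at 18140 and 17230 CPM, and their part in these ratios was not tested.

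**Figure D4:**
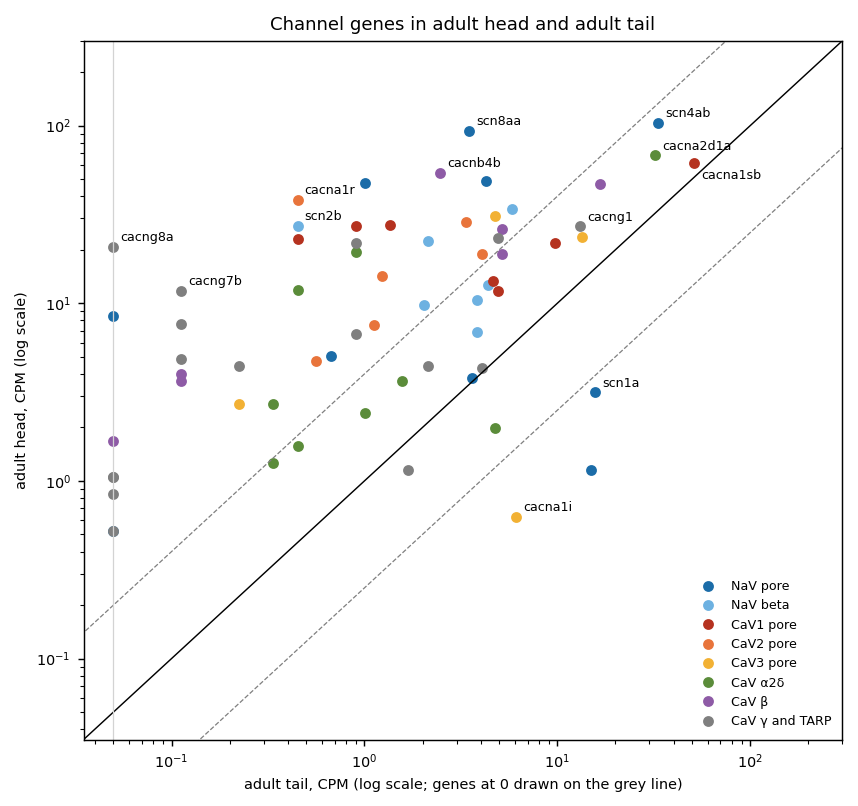
CPM of each channel gene in the adult head (y axis) against the adult tail (x axis), both on log scales, coloured by class. The solid line marks equal levels and the dashed lines a 4-fold difference; 35 members with 20 or more counts lie above the upper dashed line, scn1a and cacna1i lie below the lower one, and the muscle genes cacna1sb, cacng1 and scn4ab lie between them.

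The make-up of each class shifted along with its sum. Per length the 68 members together went from 73.2 to 88.3 FPKM in the embryo samples to 110.5 in the pool, 301 in the larvae and 299 in the head, and stood at 66.4 in the tail. The highest member per length was cacng1 in the embryos, pool and tail, cacnb4b in the larvae and scn3b in the head. The top 2 of the embryo, cacng1 and cacna1sb, are both parts of the muscle channel, whereas in the head scn3b, scn1ba, cacnb4b and scn2b (14.7 to 19.6 FPKM) led. Among NaV pores scn8aa went from 49.3% ± 6.22 of the class's FPKM at 24 hpf to 37.3% in the larvae, 25.0% in the head and 3.50% in the tail, while scn4ab went from 17.3% ± 6.34 to 22.9%, 32.8% and 38.7%. In the tail scn1a (29.7%) followed scn4ab, by the FPKM of the longest of its 3 loci in the later annotation. These shares are described without a test, and the gene models behind FPKM differ between the embryos and the other libraries. The 3 members absent from the 24 hpf annotation add to the FPKM sums of the other libraries alone.

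**Figure D5:**
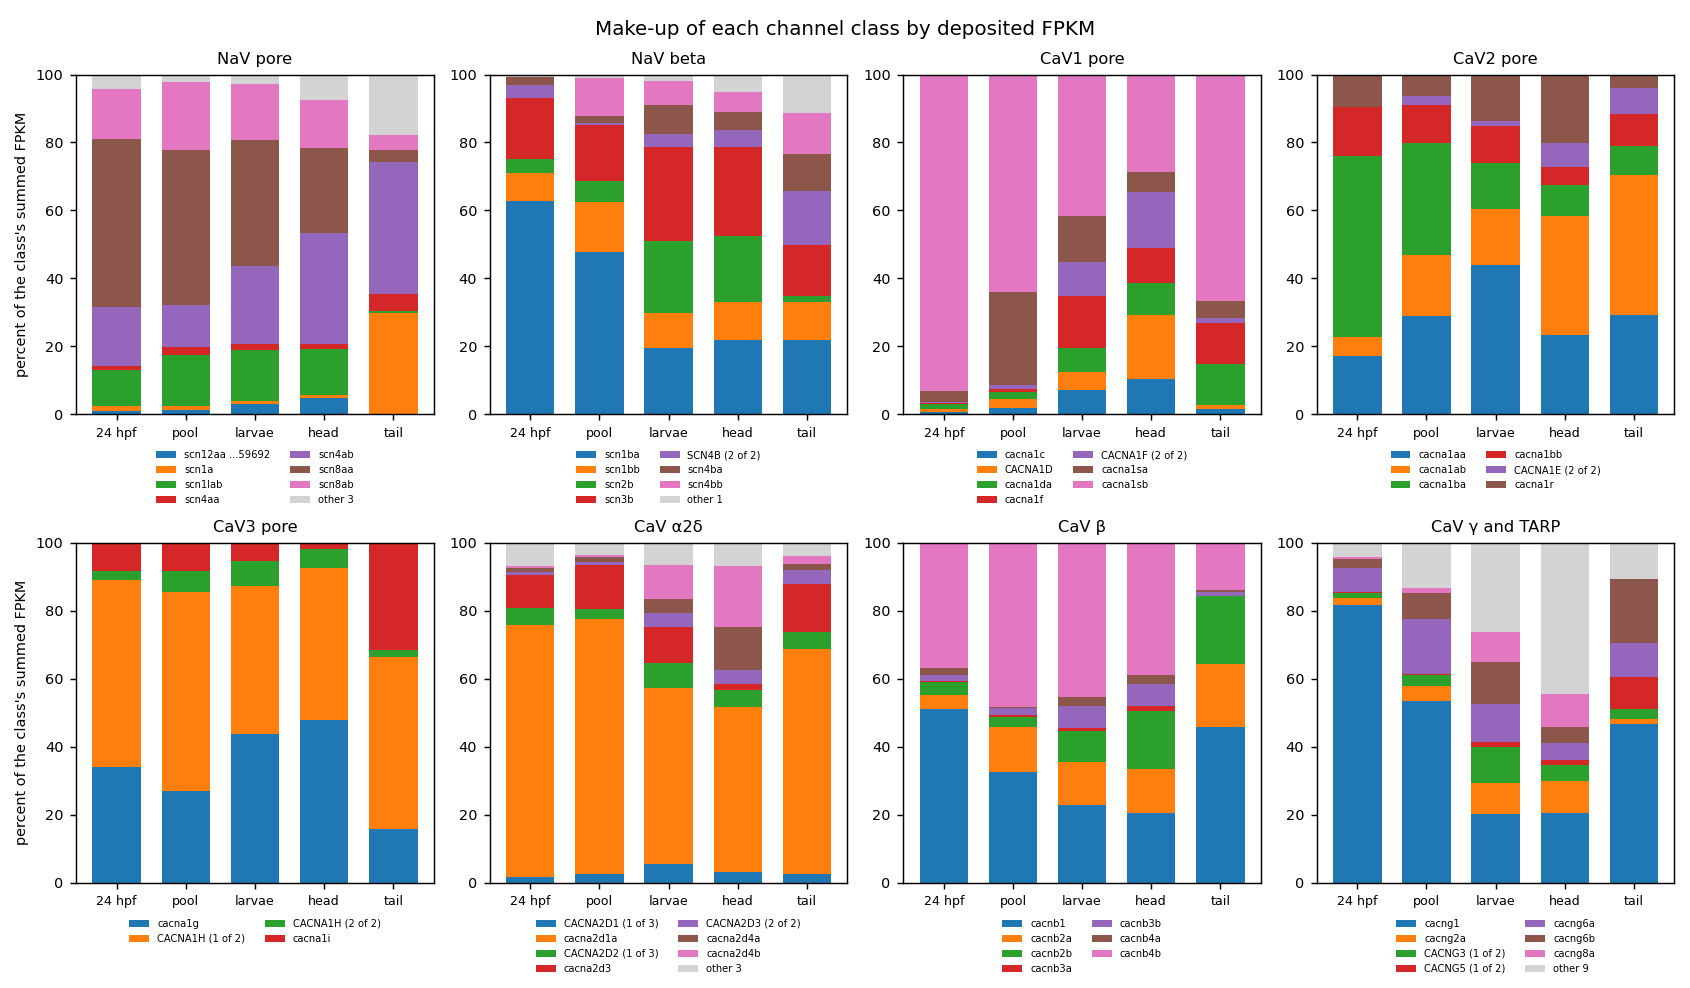
Share of each member in the summed FPKM of its class (y axis, percent) at 24 hpf (mean of 3 samples) and in the 4 single libraries, with up to 7 genes per class in colour and the others in grey. The share of cacna1sb in CaV1 pores drops from 93.2% at 24 hpf to 28.6% in the head, and that of cacng1 in the γ class from 81.6% to 20.5%.

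Of 23 pairs of paralogues, 9 kept the same member higher per length in all 7 libraries and 13 changed order. The other pair had both members at 0 in the tail. Some of the 13 changed order among the embryo samples alone, so their change cannot be read as one between stages or body parts. These were SCN4B (2 of 2) and scn4ba, CACNA1D and cacna1da, cacna1f and its copy, cacnb2a and cacnb2b, and cacng7a and cacng7b. The ratio of CACNA1D to cacna1da, for example, was 1.54, 0.6745 and 0.3991 in the embryo samples. Pairs with a fixed leader were scn4ab over scn4aa (5.90 to 31.2 times), cacnb4b over cacnb4a (14.2 to 254 times), CACNA1H (1 of 2) over CACNA1H (2 of 2) (5.79 to 26.7 times) and cacna1sb over cacna1sa. Pairs that changed order included cacna2d4a, at 1.28 to 6.04 times its copy in the embryos and 0.405 and 0.703 in larvae and head, and cacna2d3, at 5.03 to 34.2 times its copy in the embryos and 0.459 in the head. scn8aa was 1.76 to 3.71 times scn8ab in every library but the tail, where it was 0.756.

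The names also bring together genes that lie side by side. With a gap of at most 500000 bases, 34 of the 68 members formed 15 groups, 5 of which joined different classes. cacna1da lay 28075 bases from cacna2d3 on chromosome 11, and cacna1c lay 23115 bases from cacna2d4a on chromosome 4, so a pore neighboured an α2δ gene in both. cacng6b, cacng8b and cacng7b followed each other on chromosome 16 and cacng6a, cacng8a and cacng7a on chromosome 19. Neighbours need not share a course: cacna1da had 21.7 CPM in the head against 19.3 in the larvae, while cacna2d3 had 1.99 against 12.2, and scn2b and scn4ba, 20440 bases apart on chromosome 15, had 0.450 and 3.82 CPM in the tail.

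Most genes that anchor NaV channels rose in the larvae and the head. These lists were written with earlier results of these data known and carry no test of their own. Beside their counts stand the shares of all genes tested, of which 6.56% were higher in the pool, 26.5% in the larvae, 32.2% in the head and 25.6% in the tail, with 27.5% lower in the tail. Of 10 tested genes for ankyrin G, βIV-spectrin and the adhesion molecules of initial segment and node, 5 were higher in the pool, 9 in the larvae and 8 in the head, with 0, 1 and 1 lower, and 0 were higher and 4 lower in the tail. SPTBN4 (3 of 3), a βIV-spectrin, went from 0.636 ± 0.362 CPM at 24 hpf to 31.6 in the larvae (log2 change 5.62, adjusted p = 0.000303), and the contactin gene cntn2 from 13.6 ± 1.297 to 0.337 in the tail (-5.31, adjusted p = 0.000290). Of the 7 fibroblast growth factor homologous factors, which bind the NaV tail, 4 were higher in larvae and in head, 2 in the pool, and 2 were higher and 2 lower in the tail, 28.6% each way and near the shares of all genes. FGF11 (2 of 2) went from 0.465 ± 0.0810 CPM to 51.7 in the head (6.78, adjusted p = 2.33e-05).

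Partners of CaV channels were also called in larvae and head, where 26.5% and 32.2% of all genes were higher. Of 13 tested genes for RIM, RIM-binding, ELKS and Bassoon scaffolds, which hold CaV2 pores at the active zone, 4 were higher in the pool, 8 in the larvae and 7 in the head with 0 lower, and 1 was higher and 3 lower in the tail. rims2b went from 1.16 ± 0.257 CPM at 24 hpf to 40.8 in the head and 5.06 in the tail, and was the 1 higher there (2.12, adjusted p = 0.00312). All 7 CaBP calcium sensors, which modulate CaV1 pores, were higher in larvae and in head, 0 in the pool and 0 in the tail, and CABP5 (1 of 2) reached 189 CPM in the head from 0.326 ± 0.138 at 24 hpf (9.15, adjusted p = 1.72e-05). Of the 4 RGK genes, small G proteins that inhibit CaV channels, 3 were higher in larvae and in head and 0 in the pool, and rem2 went from 0.363 ± 0.122 to 11.1 CPM in the head (4.91, adjusted p = 0.000227), while 2 were higher and 1 lower in the tail. stac3, the adaptor that the muscle CaV1 channel needs, had 35.1, 27.1 and 38.8 CPM at 24 hpf, 54.3 in the pool, 67.0 in the larvae, 38.9 in the head and 35.9 in the tail, and was higher in the larvae (0.99, adjusted p = 0.0254). With STAC, 2 of 2 STAC adaptors were higher in the larvae, 1 in the head, 1 in the tail and 0 in the pool.

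Related channels outside the family were mixed. Of all genes 6.56% were higher in the pool, 26.5% in the larvae, 32.2% in the head and 25.6% in the tail. In the same order 6.05%, 23.9%, 30.4% and 27.5% were lower. The sodium leak complex (5 genes, among them the pore nalcn) had 1 higher in the pool, 4 in the larvae and 4 in the head with 0 lower, and 0 higher and 2 lower in the tail. nalcn had 8.84, 6.597 and 12.7 CPM at 24 hpf, 10.9 in the pool, 33.4 in the larvae, 38.7 in the head and 1.69 in the tail (-2.47, adjusted p = 0.00811 in the tail). Of the 3 two-pore and proton channel genes, TPCN2 was lower in pool, larvae and head, with 20.04 ± 7.49 CPM at 24 hpf and 5.00, 7.59 and 7.97 in these. TPCN1 was higher in larvae, head and tail, and HVCN1 lower in the head. The TPCN2 calls had adjusted p from 0.0452 to 0.0473.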

How the data were processed

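The members, their classes and all gene lists were chosen with earlier results of these data known. Per the labels' protocols, TRIzol was used to extract RNA and a TruSeq RNA kit to make the libraries. The submitters' processing notes list CASAVA 1.4, TopHat 1.4.1, Bowtie 0.12.7, HTSeq 0.5.3p3, Cufflinks 1.3.0 and the build Zv9, while settings, strand option and annotation release are not stated in the sources used here. Per library the authors deposited raw read counts per Ensembl gene and a table of FPKM with gene names and coordinates. Members were found by name in the FPKM tables and joined to counts by gene ID, and coordinates are given as deposited. Counts without a gene (no feature, ambiguous, not unique) were left out of library sizes. Of all entries in a count file, no feature made up 6.59% to 13.7%, ambiguous 0.733% to 1.90% and not unique 14.2% to 39.6%.

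Counts of the 28364 gene IDs in both annotations entered edgeR 4.0.16 (R 4.3.3) with TMM factors, and 21128 passed filterByExpr with a minimum count of 10. The quasi-likelihood test compared each lone library with the 3 samples of 24 hpf on 2 residual degrees of freedom, with Benjamini-Hochberg adjustment over all genes tested, and the SE is the log2 change divided by the root of F. The script also fitted simulated counts drawn from the 24 hpf means with a single common spread, and no result here rests on them. Of the 12 records at 24 hpf, the 9 without files were not used. The labels call the 3 samples biological but name no clutch. Single libraries were compared by CPM ratio with exact 95% counting intervals, which cover counting error only, and a count of 0 was bounded at 3 counts. FPKM served to compare levels between genes, and the sums, class shares and paralogue ratios built on it were described across libraries. No test used FPKM. Alternatives were RLE factors, library totals, DESeq2 1.42.0, no filter, genes of identical interval, each 24 hpf sample left out, and, for ratios, another fold, no count minimum or FPKM. Values in every library were given for members with the highest FPKM of their class in any group, for those among the 4 largest called changes of their class and for their paralogues, and other members were added for contrast after their values were seen. From partner lists at most the 2 largest called changes per list and comparison were named. Counts and sums cover all 68 members, but 3 of them are not reported here by name.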

Additional observations from a re-analysis of the deposited data

Results flagged for a closer look

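Of the 51 members higher in the adult head than at 24 hpf, 5 were lower in the adult tail, so that for these the 2 body parts moved in opposite directions from the same 3 embryo samples. Of all genes 32.2% were higher in the head and 27.5% lower in the tail. The share of all genes with both calls was not counted, so the 5 are not read against it. The log2 changes in head and tail were 2.75 and -1.99 for scn8aa, 1.56 and -1.95 for cacna1ba, 1.49 and -2.96 for cacnb4b, 2.54 and -2.05 for cacng2a, and 2.39 and -3.63 for cacng2b. The difference between head and tail was not itself tested, since each is 1 library. Neuron markers summed to 2581 CPM in the head and 57.6 in the tail, and their part in these values was not tested.

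The 24 hpf annotation gives the name scn4bb to the ID called SCN4B (2 of 2) here. The later annotation gives it to another ID, which it alone lists. That NaV beta ID had deposited FPKM values with 0 counts in the same libraries. The FPKM was 1.497 in the pool, 3.57 in the larvae, 4.27 in the head and 1.61 in the tail. Its interval on chromosome 5 (39534341 to 39536078) lies inside that of SCN4B (2 of 2) (39519266 to 39536078), and the part of this overlap in the 0 counts was not tested.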

How the results depend on the processing

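No result reversed its direction. Of 145 called values of single members, 1 was lost with RLE factors, 6 under library totals, 22 with DESeq2 and 1 without the filter on low counts, and 6 of 73 among genes of identical interval. Without 24 hpf sample 1, 2 or 3 the number lost was 23, 32 and 2 of 144. The ranges over these 3 omissions were 1 to 20 higher and 0 to 1 lower in the pool, and 1 to 3 lower in the head. Of all genes 0.340% to 10.6% were higher and 0.349% to 12.55% lower in the pool, and 25.8% to 33.7% lower in the head. Among genes of identical interval, where 33 members could be tested, higher and lower counts were 3 and 0 in the pool, 27 and 0 in the larvae, 24 and 1 in the head and 8 and 4 in the tail, a fall that the smaller number of members gives in part. Of all such genes 4.42%, 25.2%, 31.3% and 23.4% were higher in these libraries, and 6.14%, 23.9%, 30.0% and 26.7% lower. Library totals left 1 lower in the head and 6 lower in the tail, against 21.4% and 21.3% of all genes. No filter gave 2 lower in the larvae, against 20.1% of all genes, and the cause was not tested. From larvae to head a 2-fold limit gave 9 higher and 9 lower members, and no count minimum gave 5 higher. The shares of all genes under these limits are not given here, so these counts are not read as a trait of the members. No paired analysis was possible because only the 24 hpf group has more than 1 library. Depth limits the low members: 34 had fewer than 20 counts in the pool, 15 in the larvae, 14 in the head and 40 in the tail.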

Other observations

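The 10 glia and myelin markers summed to 833 ± 200 CPM at 24 hpf (n = 3), 602 in the pool, 674 in the larvae, 1981 in the head and 190 in the tail. In the head mbp alone held 1166 CPM. By gene, 3 were higher and 3 lower in the larvae, 5 and 4 in the head, 3 and 6 in the tail. Of all genes 26.5%, 32.2% and 25.6% were higher in these libraries, and 23.9%, 30.4% and 27.5% lower. Heart muscle markers summed to 142 CPM in the pool, 200 in the larvae and 709 in the head. Of these 7, 2 were higher and 1 lower in the pool, 4 and 2 in the larvae, and 6 and 0 in the head. The tail library held 12 of 12 tested ovary and oocyte markers above 24 hpf, and 0 of 12 were higher in the larvae or the head.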
